A study of Sus scrofa with 6 samples.

Results

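miR-191 and miR-425-5p are mature microRNAs (miRNAs, short RNAs that guide repression of messenger RNAs) cut from 2 hairpins of one primary transcript. They are listed as ssc-miR-191 and ssc-miR-425-5p in the deposited tables of 6 small RNA libraries of pig oocytes, make up 2 of 326 listed mature miRNAs, and were both among the 104 with enough reads to test. The pair was chosen by name for its shared transcript and selected on values already seen: the levels, the ratio of the members and the contrast between groups. These values are therefore a description, with no p-value for either miRNA. All oocytes came from cumulus-oocyte complexes of prepubertal gilts and were freed of their cumulus cells before RNA isolation. The large-follicle group (LO) came from follicles of 3 to 6 mm, drawn with a 20-gauge needle on a 10 mL syringe, and the small-follicle group (SO) from follicles under 2 mm, drawn with a 23-gauge needle on a 5 mL syringe. Follicle size, needle and syringe differ together and cannot be told apart. Each group had 3 libraries, which the series design calls biological replicates. The labels and design text do not say how many animals or oocytes were pooled for a library.

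In mammals the hairpins of miR-191 and miR-425 lie in an intron of DALRD3, a gene for a cofactor of transfer RNA methylation, and are made from a shared transcript. Each hairpin is then cut on its own by Drosha and Dicer, and 1 arm of each is kept in the silencing complex, so that a common transcript need not give equal amounts of mature miRNA. The cluster has been described as estrogen-responsive in breast cancer cells. miR-191 is also a common reference for normalizing quantitative PCR of small RNAs, and CDK6 and SATB1 are among its described targets. miR-425-5p is known for repressing NPPA, the gene of atrial natriuretic peptide. In the RefSeq gene table of the pig assembly Sscrofa11.1, MIR425 and MIR191 were the only 2 genes that lay wholly inside the span of DALRD3, with no gene between them. That build is not the one named in the submitters' notes, so no coordinates are given.

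The mature sequences are shown because reads of each could be told apart from those of the other by sequence. They are copied from the deposited tables, 5′ to 3′, with T for U and with the seed (bases 2 to 8, which pair with targets) in capitals.
miR-191: cAACGGAAtcccaaaagcagctg
miR-425-5p: aATGACACgatcactcccgttga
miR-425-3p: aTCGGGAAtgtcgtgtccgccc
The seeds of miR-191 and miR-425-5p differ at 5 of 7 bases, and the 2 miRNAs differ at 15 of their first 20 bases, with a longest shared run of 4 bases. No other listed name shares a seed with any of the 3 sequences. The nearest other names differed from miR-191 at 8 and from miR-425-5p at 9 of the first 20 bases, so neither has a near-identical listed copy. Both members are 23 bases long. Their GC content was 52.2% for miR-191 and 47.8% for miR-425-5p, beside a median of 47.6% over the 326 names. miR-425-3p, the other arm of the miR-425 hairpin, had 63.6%. No opposite arm of miR-191 was analysed here.

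Values are in RPM, reads per 1000000 of a library total that the authors chose. That total was 461505 to 1424130 reads in LO and 1915218 to 2187987 in SO, of which listed miRNAs took 1.68% to 3.03% and 2.33% to 2.88%. LO replicate 2 was the shallowest library, with 7755 listed miRNA reads against 17464 to 55230 in the others. No mature miRNA defines the oocyte, and its defining messenger RNAs were not measured. Levels are shares of bulk RNA, in which fewer cells of a type and less RNA per cell cannot be told apart.

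In LO replicates 1 to 3, miR-191 (ssc-miR-191) was at 207, 73.7 and 140 RPM, from 119, 34 and 200 reads. In SO replicates 1 to 3 it was at 85.6, 104 and 71.8 RPM, from 164, 199 and 157 reads. LO replicates 1 and 3 lay above every SO library, whereas LO replicate 2 fell inside the SO range, so the groups overlapped. The exact Poisson 95% intervals of LO replicate 1 (171 to 247 RPM), LO replicate 3 (122 to 161 RPM) and the next library in order, SO replicate 2 (89.8 to 119 RPM), did not touch. From SO replicate 2 downward, each library's interval overlapped that of the next. These intervals cover counting error only, with reads taken as independent molecules, as do the intervals of read shares and the counting-error SDs below. Where reads are not independent molecules, all of these are too small.

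miR-425-5p (ssc-miR-425-5p) was at 177, 17.3 and 65.3 RPM in LO replicates 1 to 3, from 102, 8 and 93 reads. In SO replicates 1 to 3 it was at 35.0, 39.6 and 48.0 RPM, from 67, 76 and 105 reads. The LO libraries lay on both sides of SO, with replicates 1 and 3 above every SO library and replicate 2 below every one. LO replicate 1 stood alone, at 144 to 215 RPM (exact Poisson 95% interval), and the other 5 libraries formed a chain in which each interval overlapped that of its neighbour, down to 7.48 to 34.2 RPM in LO replicate 2. Within LO the SD of log2(RPM + 1) was 1.64 for miR-425-5p and 0.75 for miR-191. Within SO the same SDs were 0.22 and 0.26, so on this scale the wide spread of miR-425-5p was seen in LO.

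**Figure D1:**
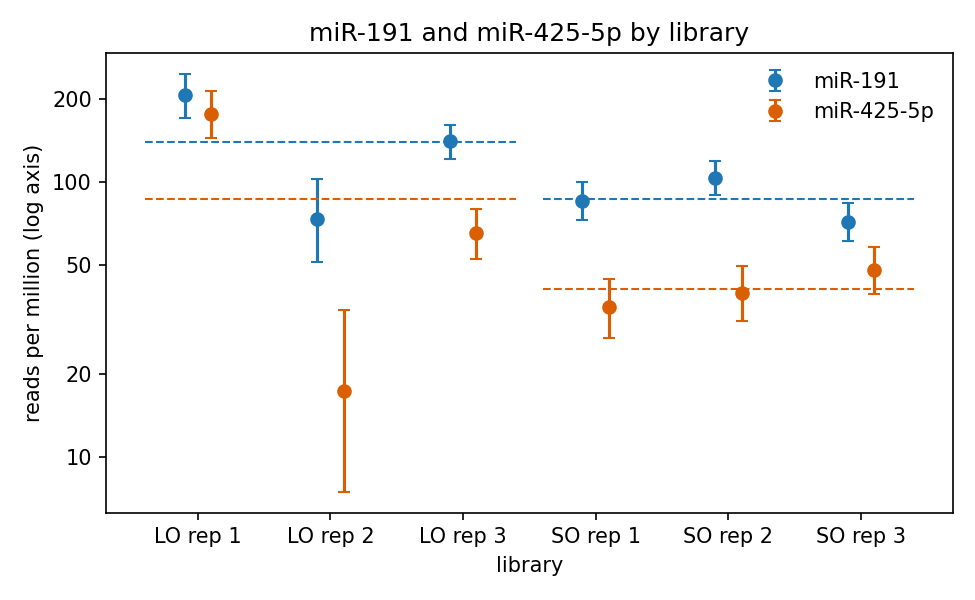
Level of miR-191 (blue) and miR-425-5p (orange) in RPM, on a log axis, in each of 6 libraries. Points are library values, bars are exact Poisson 95% intervals for counting error, and dashed lines are group means; LO replicate 2 is the low point of miR-425-5p at 17.3 RPM, and LO replicate 1 is the high point of both.

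The question of the design was whether levels differ between oocytes of large and small follicles. The mean of miR-191 was 140 ± 66.5 RPM for LO against 87.0 ± 16.0 RPM for SO. That of miR-425-5p was 86.6 ± 82.0 against 40.9 ± 6.59 RPM (SD, 3 libraries in each group). On the log2(RPM + 1) scale the difference, LO minus SO, was 0.58 (SE 0.52) for miR-191 and 0.53 (SE 0.56) for miR-425-5p. The median difference of the 104 tested miRNAs was itself 0.29, and the members lay 0.29 and 0.24 above it, in places 27 and 32 from the highest. With scaling by TMM (trimmed mean of M values, which sets the bulk of miRNAs level) the median was 0.05 and the members were at 0.33 and 0.28. LO had the higher mean for 69.2% of tested miRNAs on the deposited scale and for 52.9% with TMM. By limma, neither of the 2 members was called at an FDR (false discovery rate) of 0.05, beside 0 of 104 miRNAs (0.00%) and 4 (3.85%) with an unadjusted p under 0.05. edgeR's quasi-likelihood test on recovered reads called neither member and 2 of 104 miRNAs (1.92%), and DESeq2 called 0 of 242 (0.00%). The LO and SO ranges did not overlap for 4 of 104 miRNAs (3.85%), neither of them a member.

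The difference of miR-425-5p turned with single LO libraries. It was -0.25 without LO replicate 1 and 1.39 without LO replicate 2, where that of miR-191 was 0.24 and 0.98. Without LO replicate 1 the median of all tested miRNAs was -0.06, and LO had the higher mean for 45.2% of them. Without LO replicate 2, limma called 18 of 104 miRNAs (17.3%) at FDR 0.05, and the median of all tested miRNAs was 0.62. miR-425-5p was among the 18 and miR-191 was not, but both were among the 37 (35.6%) with an unadjusted p under 0.05. LO replicate 2 was the library in which miR-425-5p was lowest. Leaving it out raises that difference by construction, so this call is no test of the member.

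The ratio of the members asks how far products of one transcript keep step, and it does not depend on the scaling, because both counts come from the same library. miR-425-5p held 46.2% of the reads of the pair in LO replicate 1 (102 of 221; 95% exact Clopper-Pearson interval 39.4% to 53.0%). It held 19.0% in LO replicate 2 (8 of 42; 8.60% to 34.1%) and 31.7% in LO replicate 3 (93 of 293; 26.4% to 37.4%). In SO replicates 1 to 3 it held 29.0% (23.2% to 35.3%), 27.6% (22.4% to 33.3%) and 40.1% (34.1% to 46.3%). miR-191 therefore led in all 6 libraries, by 1.17 times in LO replicate 1, where the interval included equal amounts, and by 4.25 times in LO replicate 2. The intervals did not overlap for 5 of the 15 pairs of libraries: LO replicate 1 against LO replicates 2 and 3 and SO replicates 1 and 2, and SO replicate 2 against SO replicate 3.

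**Figure D2:**
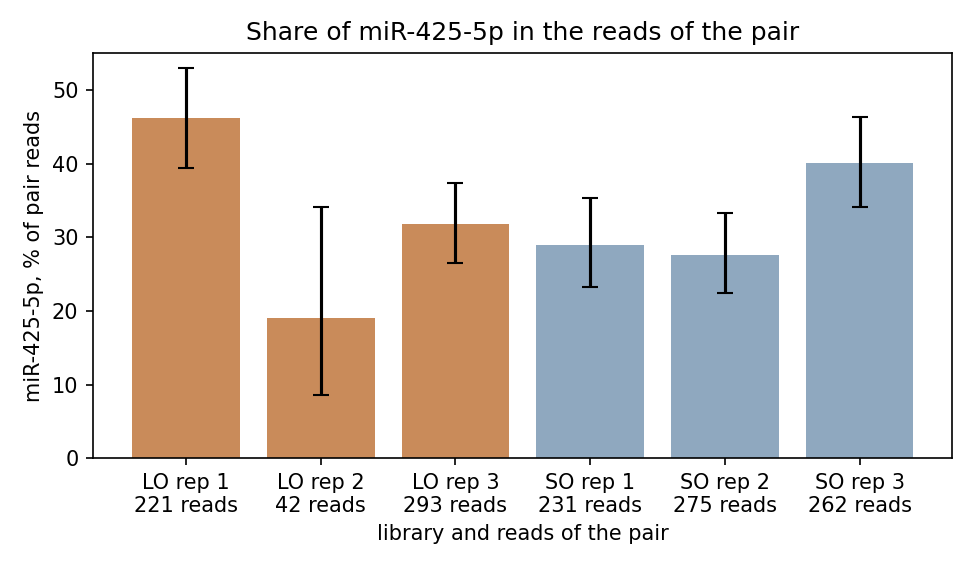
Share of miR-425-5p in the summed reads of miR-425-5p and miR-191, in percent, by library, with 95% exact Clopper-Pearson intervals; LO is brown and SO blue. The share runs from 19.0% in LO replicate 2 to 46.2% in LO replicate 1, and the SO libraries lie between these.

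The mean of this share was 32.3% ± 13.6 over the 3 LO libraries and 32.2% ± 6.82 over the 3 SO libraries (SD). As the log2 ratio of miR-425-5p to miR-191 they were -1.14 ± 0.93 and -1.09 ± 0.44, a difference of -0.05 that was far smaller than the spread within either group. The difference was -0.51 without LO replicate 1 and 0.42 without LO replicate 2. Libraries of a group thus differed more from each other than the group means did.

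Over the 6 libraries the log2 ratio had an SD of 0.65, against 0.29 from counting error alone, and its highest value was 3.64 times its lowest. Without LO replicate 2, the library with 8 reads of miR-425-5p, the SD was 0.50, against 0.19 from counting error, and the highest value was 2.24 times the lowest. Of 21 other pairs made from shared transcripts, 11 had enough reads of both miRNAs, and their SDs ran from 0.16 to 1.07 with a median of 0.38. The pair of miR-191 and miR-425-5p had the third highest SD of these 12, the fourth without LO replicate 2 and the fifth without LO replicate 1; without any other library it was the second or the third. Above it were miR-15b with miR-16 (1.07, counting error 0.66) and miR-23a with miR-24-3p (0.79, counting error 0.51), where 1 miRNA was scarce. The steadiest was miR-182 with miR-183, sensory-lineage miRNAs, at 0.16 (counting error 0.20). Of all 1711 pairs of the 59 tested miRNAs with at least 8 reads in every library, whether or not they share a transcript, the median SD was 0.55 and 37.7% had a larger SD than miR-191 with miR-425-5p. This share was 54.6% without LO replicate 2. The 12 pairs above needed only a read in every library. Over all 4950 pairs of the 100 tested miRNAs that met this, scarcer ones included, the median SD was 0.70. Of these, 55.2% had a larger SD than miR-191 with miR-425-5p. miR-16, miR-24, miR-29b, miR-30c, let-7a and let-7f are also made from other loci, so their pairs are not pure products of one transcript.

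**Figure D3:**
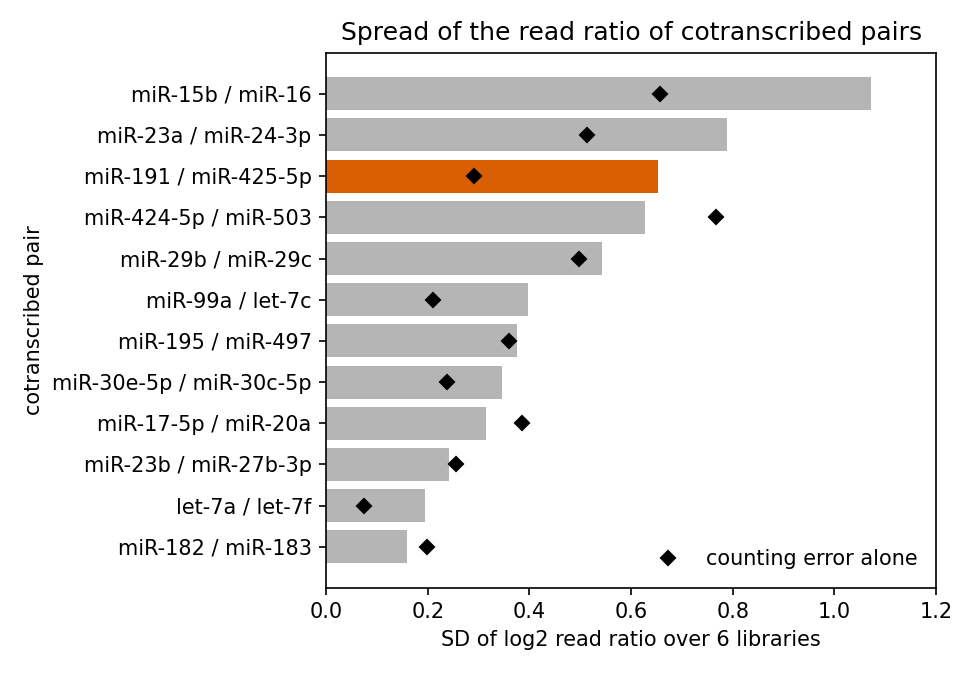
SD over 6 libraries of the log2 read ratio for 12 pairs of miRNAs made from shared transcripts (bars), with the SD that counting error alone gives (diamonds). The pair of miR-191 and miR-425-5p (orange) is at 0.65 with counting error at 0.29, and miR-182 with miR-183 is lowest at 0.16.

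On the deposited scale the members were highest in the same library, LO replicate 1. Over 6 libraries of log2(RPM + 1), Pearson's r was 0.88 and Spearman's rho 0.66, and with the group means removed r was 0.91. Without the 2 libraries farthest from the median of miR-191, which were LO replicates 1 and 3, r was 0.28 and rho -0.20 over 4 libraries. That choice narrows the range of levels by construction, so these values cannot decide whether the relation holds without that pair of libraries. Without LO replicate 1 alone r was 0.65, and without LO replicate 3 alone it was 0.89. Both values of a point share a library and its scaling total, and most tested miRNAs had a positive r: its median over the other 103 tested miRNAs was 0.76 with miR-191 and 0.71 with miR-425-5p. With TMM those medians were -0.02 and -0.05, and r between the members was 0.33. That value was -0.11 without LO replicate 1, 0.05 without SO replicate 1 and 0.66 without LO replicate 2. On the deposited scale 32 other miRNAs correlated more closely with miR-191 than miR-425-5p did, and 22 correlated more closely with miR-425-5p than miR-191 did. Without SO replicate 3 these counts were 6 and 8, and r between the members was 0.98. Without LO replicate 1 they were 46 and 50.

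The miRNA most like miR-191 over the 6 libraries was let-7e, a let-7 family member whose reads may be shared with near-identical let-7 names, with r of 0.99 on log2(RPM + 1) and 0.98 with TMM. In LO replicates 1 to 3 let-7e was at 167, 54.2 and 99.0 RPM, and SO replicates 1 to 3 had 54.3, 70.4 and 42.0 RPM. Both were higher in SO replicate 2 than in SO replicates 1 and 3, the order that miR-425-5p did not have. miR-339-5p, let-7d-5p, miR-31 and miR-497 followed on the deposited scale, each with r between 0.97 and 0.98. With TMM the next 4 were let-7c, let-7d-5p, miR-374a-3p and miR-99b, at 0.83 to 0.89, so that let-7e and let-7d-5p were on both lists.

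The miRNA most like miR-425-5p was miR-423-3p, from another gene, with r of 0.99 on both scales. miR-423-3p was at 95.5, 8.67 and 33.7 RPM in LO replicates 1 to 3, from 55, 4 and 48 reads, and at 17.2, 18.8 and 20.1 RPM in SO. It shared with miR-425-5p the high value in LO replicate 1, the low value in LO replicate 2 and, on the deposited scale, the narrow SO range. miR-181a, miR-99a, miR-151-3p and miR-140-3p completed the 5 nearest at r of 0.97 to 0.98, and the same 5 names were nearest with TMM. The ratio of miR-425-5p to miR-423-3p ran from 1.85 to 2.39, and that of miR-191 to let-7e from 1.24 to 1.71. The SDs of these log2 ratios were 0.13 and 0.16, below the 0.44 and 0.22 that counting error alone gives. Since these partners were chosen as the closest of 103, their steady ratios are a description and not a test. Without LO replicate 1, r was 0.97 for miR-191 with let-7e and 0.99 for miR-425-5p with miR-423-3p. The partners were chosen with the remaining libraries included, so these values are a description too.

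**Figure D4:**
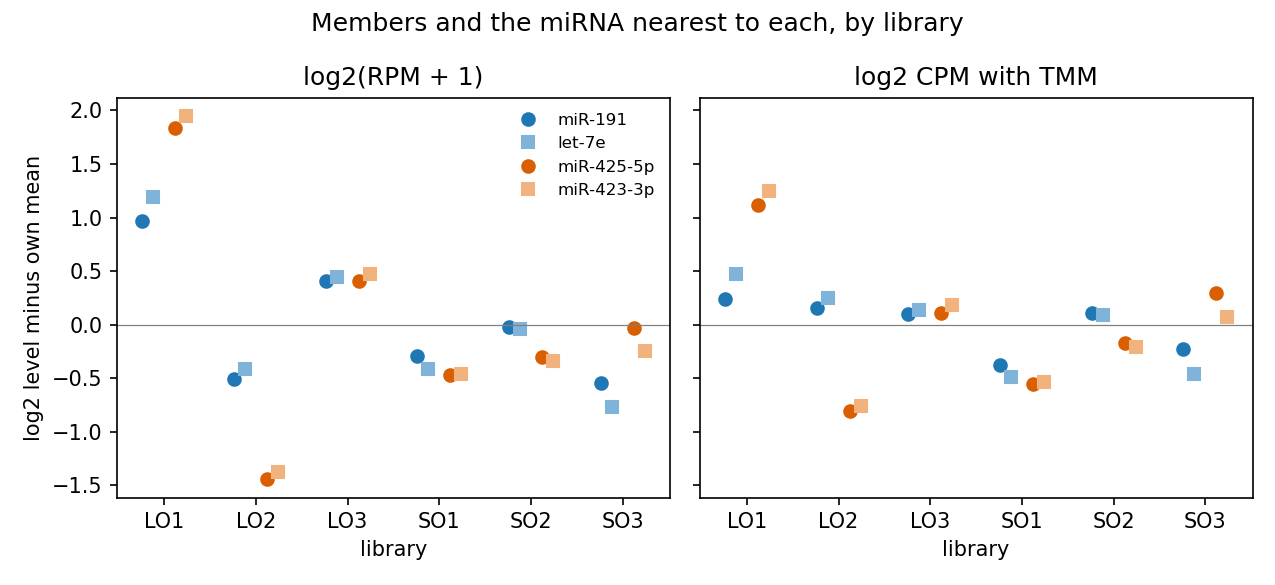
Level of miR-191 and let-7e (blues) and of miR-425-5p and miR-423-3p (oranges) in each library, as log2 level minus each miRNA's own mean over 6 libraries, on the deposited scale (left) and with TMM (right). With TMM, miR-191 stays between -0.38 and 0.24 while miR-425-5p runs from -0.80 in LO replicate 2 to 1.12 in LO replicate 1, close to miR-423-3p.

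Use as a reference asks for a level that varies little. With TMM, the SD of log2 CPM (counts per 1000000, TMM-scaled) over 6 libraries was 0.24 for miR-191, place 9 from the lowest of 104, and 0.68 for miR-425-5p, place 85, beside a median of 0.50. Within LO alone the SDs were 0.07 and 0.96, and within SO alone they were 0.25 and 0.42. Without LO replicate 1 the places were 23 and 67, and without LO replicate 2, with 8 reads of miR-425-5p, they were 17 and 81. These SDs include counting error, which is larger for scarcer miRNAs, so the places are not free of abundance. On the deposited scale, where library-wide shifts remain, the SDs were 0.59 and 1.09, in places 46 and 93. Of 10 other miRNAs often used as references, 9 were tested, with a median SD of 0.25 by TMM and a range of 0.17 to 0.71. let-7a (0.17), miR-26a (0.17), miR-320 (0.19) and miR-16 (0.20) varied less than miR-191. miR-30e-5p (0.25), miR-103 (0.25), miR-24-3p (0.35) and miR-423-5p (0.66) lay between the members, and only miR-423-3p (0.71) of these 9 had a larger SD than miR-425-5p. On the deposited scale LO had the higher mean for all 9, with a median log2 difference of 0.42.

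miR-191 was the more abundant member, in place 26 of the 326 names by mean level, and miR-425-5p was in place 39. In single libraries miR-191 kept to places 23 to 31, while miR-425-5p moved from place 25 in LO replicate 1 to place 57 in LO replicate 2. The tested miRNAs nearest in mean level were miR-27b-3p (127 RPM) and miR-335 (112 RPM) around miR-191 (114 RPM), and miR-195 (63.9 RPM) and miR-23b (63.2 RPM) around miR-425-5p (63.7 RPM). The SDs of these 6 over all libraries were 33.8 to 57.7 RPM, larger than the gaps between their means. The order within libraries was not that of the means: miR-27b-3p was above miR-191 in 5 of 6 libraries and miR-335 in 4, and miR-195 and miR-23b were each above miR-425-5p in 4 of 6.

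The other arm of the miR-425 hairpin was scarce. There were 4, 0 and 1 reads of miR-425-3p in LO replicates 1 to 3, and SO replicates 1 to 3 had 1, 4 and 1, too few to test. It made up 2.38% of the 462 reads of both arms (95% exact Clopper-Pearson interval 1.19% to 4.22%), with 2.40% in LO (5 of 208) and 2.36% in SO (6 of 254). The 0 of 8 reads in LO replicate 2 allows a share of up to 37.5% by the limit of 3 reads, and up to 36.9% by the exact interval, so the arm balance was not measurable there. Among 28 hairpins with both arms listed and at least 100 reads, the minor arm took a median of 3.08%, and 12 had a smaller minor share than miR-425. In RPM, miR-425-3p was at 6.95 in LO replicate 1, where miR-425-5p was highest, listed at 0 in LO replicate 2, where it was lowest, and at 0.457 to 2.08 in the other 4 libraries, each from at most 4 reads. The 0 in LO replicate 2 allows up to 7.99 RPM (exact Poisson 95% interval), above the value of LO replicate 1. Whether the arms rise and fall together could therefore not be seen.

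Other cell types could add RNA to denuded oocytes, and some of their markers were highest in the same library as the members. High levels in LO replicate 1 were common: 92 of 104 tested miRNAs were higher there than in LO replicate 2. The median log2 difference was 1.33, with miR-191 at 1.48 (place 44 from the highest) and miR-425-5p at 3.28 (place 8). Against LO replicate 3, 71 of 104 were higher in LO replicate 1, with a median of 0.41. In that comparison miR-191 was at 0.55 (place 42) and miR-425-5p at 1.43 (place 6). All 9 miRNAs listed as granulosa and cumulus markers had reads, and their summed level was 1162, 325 and 767 RPM in LO replicates 1 to 3 and 394 to 736 RPM in SO, highest in LO replicate 1, as both members were, and lowest in LO replicate 2, as miR-425-5p was, while miR-191 was lowest in SO replicate 3. As a share of listed miRNA reads these markers were highest in LO replicate 1 (3.83%) and lowest in SO replicate 3 (1.69%), with LO replicate 2 at 1.93%. These markers include miR-31, 1 of the 5 nearest to miR-191, and miR-202, which oocytes also hold. The 6 theca, stroma and smooth muscle markers, of which miR-214 was at 0, summed to 72.3 to 127 RPM in LO and 43.0 to 94.5 RPM in SO. The 2 endothelial markers, miR-126-3p and miR-126-5p, summed to 9.13 to 17.4 RPM in LO and 3.20 to 14.1 RPM in SO. In RPM both lists were highest in LO replicate 1, and as a share of listed miRNA reads both were highest in LO replicate 2 (0.438% and 0.0645%). The 6 blood markers, all with reads, summed to 7.02 to 10.8 RPM in LO and 3.13 to 60.0 RPM in SO, with the top value in SO replicate 1, where neither member was high. The share of all reads that listed miRNAs took was likewise highest in LO replicate 1 (3.03%) and lowest in LO replicate 2 (1.68%). miR-205, the most abundant miRNA of these oocytes, had its lowest share of listed miRNA reads in LO replicate 1, at 27.7% against 36.4% to 43.2% in the other 5 libraries. In RPM it was lowest in LO replicate 2 (6108), next lowest in LO replicate 1 (8389), and at 8894 to 11355 in the rest. The part of these markers, of miR-205 and of the listed miRNA share of all reads in the levels of the members was not tested.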

How the data were processed

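Small RNA from denuded oocytes was isolated with the mirVana kit and sequenced on a NextSeq500 after the QIAseq miRNA library kit, according to the series design and the labels' protocols. The deposited column is headed TPM, but in each library every value above 0 was a whole multiple of 1 step (100% within 0.01 read) at all sequence lengths. The authors' deposited unit was taken as RPM for this reason, and dividing by the step gave reads. Their counting rule and any use of molecular identifiers are not given in the sources used here. The build Sscrofa10.2 and the tools Bowtie2 2.2.2, bcl2fastq, edgeR and cutadapt appear in the submitters' processing notes, without roles.

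The fit was limma 3.58.1 in R 4.3.3 with an intensity trend on log2(RPM + 1), a scale that understates changes of low miRNAs, a single term for group, and Benjamini-Hochberg adjustment over the 104 miRNAs that passed filterByExpr. Its SE follows the trend with abundance. edgeR 4.0.16 and DESeq2 1.42.0 were run on recovered reads as alternatives. The limma and edgeR fits were tested on simulated data, and the DESeq2 fit was not. Named miRNAs are the members, the other arm, the 5 nearest by r on each scale, a list of references, a list of cotranscribed pairs, neighbours in level and markers of other cell types. The members and these lists were chosen with earlier results of these data known. Replicates of a group differed beyond sampling noise (chi-square over degrees of freedom 2.71 to 16.8), so each counts as 1 sample. Whether libraries came from separate animals is not stated beyond the word biological, so spreads may be partly technical.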

Additional observations from a re-analysis of the deposited data

How the results depend on the processing

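The difference of miR-191 between LO and SO was above 0 in all 15 alternatives, at 0.24 to 0.98, and that of miR-425-5p in 14 of 15, at -0.25 to 1.39, the exception being without LO replicate 1. The number of miRNAs called was 2 with edgeR's quasi-likelihood test and ran from 0 to 18 over the fits that left out 1 library, the 18 without LO replicate 2. r between the members was 0.70 on reads scaled to 1000000 listed miRNA reads and 0.33 with TMM. On the deposited scale it was 0.28 without LO replicates 1 and 3, and 0.65 to 0.98 with 1 library left out. With TMM and 1 library left out it ran from -0.11 to 0.66. The SD of the log2 ratio stayed between 0.50 and 0.73. The difference in log2 arm ratio of miR-425, 5p to 3p, was -0.39, and from -0.96 to 0.06 over its 8 alternatives, on 11 reads of the 3p arm in all. Deviations from the group means correlated at -0.34, -0.22 and 0.08 for replicate numbers 1, 2 and 3, beside -0.29 to 0.43 between unlike numbers. With 3 libraries in each group these values cannot decide whether the numbers pair the libraries. With the number as a replicate block the differences stayed at 0.58 and 0.53, that of the ratio at -0.05 and that of the arm ratio at -0.39, and 0 miRNAs were called. Depth limits LO replicate 2 most, where 8 reads stand behind miR-425-5p.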
